A study of Mus musculus with 32 samples.

Results

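A pair of neighbouring progenitor fractions of old mouse marrow was compared: multipotent progenitor 3 (MPP3), which is biased towards the myeloid lineages, and multipotent progenitor 4 (MPP4), which is primed for the lymphoid lineages. The comparison takes the 4 RNA-seq libraries labelled as aged MPP3 (2 libraries) and aged MPP4 (2 libraries), out of 32 in the series. These were picked by label and age and by no measured value, but earlier results of these data were known. The cells came from female C57BL/6 mice aged 20 months, with no transgene and no treatment. Both fractions lacked lineage markers, carried Sca-1, c-kit, CD34 and CD48 and lacked CD150. They were separated by 1 antigen, Flt3, which is absent from the surface of MPP3 and present on MPP4. An antibody to the interleukin 7 receptor was part of the lineage mix, so cells with that receptor were left out of both. The 4 libraries of young MPP3 and young MPP4 (10 weeks, same sex, strain and gates) were used beside them. The 2 libraries of a fraction are described once as sorted in duplicate from marrow pooled by age and elsewhere as independent duplicates, so the spread between them, and every error and p-value below, may be technical only.

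Both fractions descend from hematopoietic stem cells and keep more than one fate open. MPP3 cells mainly feed granulocytes and monocytes, and single-cell work elsewhere finds early megakaryocytic, erythroid, mast cell and basophil programs near them. Cells of the MPP4 gate begin the lymphoid program: they transcribe the recombination genes, the terminal transferase that adds nucleotides to receptor gene joints, and the signalling genes of early B and T cells, while they can still make myeloid cells. Marrow of old mice is known for a shift from lymphoid towards myeloid and platelet output.

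The aged libraries held between 13328009 and 14502768 counts, so that 1 library could not tell a gene from absence below 0.207 to 0.225 CPM (counts scaled to a library total of 1000000), the level of 3 counts. Levels below are CPM in replicates 1 and 2. Differences are log2 fold changes of MPP3 over MPP4 (positive values are higher in MPP3) ± standard error, n = 2 libraries a fraction, from edgeR's quasi-likelihood test fitted to all 32 libraries, with Benjamini-Hochberg adjustment over 14154 genes. The standard error was taken as the absolute difference divided by the square root of the test's F statistic. It was not fitted directly, and at low counts it need not match the p-value. A gene was called at an adjusted p below 0.01. An exact permutation test of 2 against 2 libraries cannot go below 0.333 and was not used. In these bulk samples, fewer cells of one type and less RNA in each cell cannot be told apart.

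The gate was visible in its own gene. Flt3 (chromosome 5, 147330741 to 147400489 in GRCm38) stood at 172 and 216 CPM in aged MPP3 and at 682 and 781 CPM in aged MPP4, a difference of -1.96 ± 0.17 (adjusted p = 8.9e-08). This is a check on the sort and not a result. Its size was -1.93 ± 0.17 in young mice. Of the other sorting antigens, the transcripts of Ly6a (a Sca-1 gene), Cd34, Cd48 and Ptprc were not called. Kit, the receptor for stem cell factor, was slightly higher in MPP3, at 818 and 869.7 against 596 and 586 CPM (0.47 ± 0.11, adjusted p = 0.00714). Slamf1, which encodes CD150, had 1.52 and 1.58 CPM in MPP3 and 0 and 0.217 in MPP4. The MPP4 libraries held 0 and 3 counts of it, so its log2 ratio with the 95% counting interval was 3.82 (2.17 to 6.15). With any 1 of the 4 libraries left out the call of Kit was lost, and without either MPP3 library or MPP4 replicate 1 that of Slamf1 (adjusted p up to 0.0697 and 0.049). Il7r is taken up with the lymphoid genes, since its protein was selected against in both gates.

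Across all genes, 601 of 14154 (4.25%) were called between aged MPP3 and aged MPP4. Of these, 328 (2.32%) were higher in MPP3 and 273 (1.93%) higher in MPP4. The called genes had a median absolute difference of 1.02, against 0.16 over all genes tested, and 308 of them differed by at least 2-fold, 193 towards MPP3 and 115 towards MPP4. The median over all genes was 0.00. With any 1 of the 4 libraries left out, 174 to 242 genes were called higher in MPP3 and 119 to 147 higher in MPP4, and with DESeq2 607 and 489. The root mean square log2 difference was 0.497 between the 2 MPP3 libraries, 0.470 between the 2 MPP4 libraries and 0.644 between the means of the fractions, each a mean of 2 libraries and so less spread than a single one. An unadjusted p under 0.05 was found for 2633 genes.

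**Figure D1:**
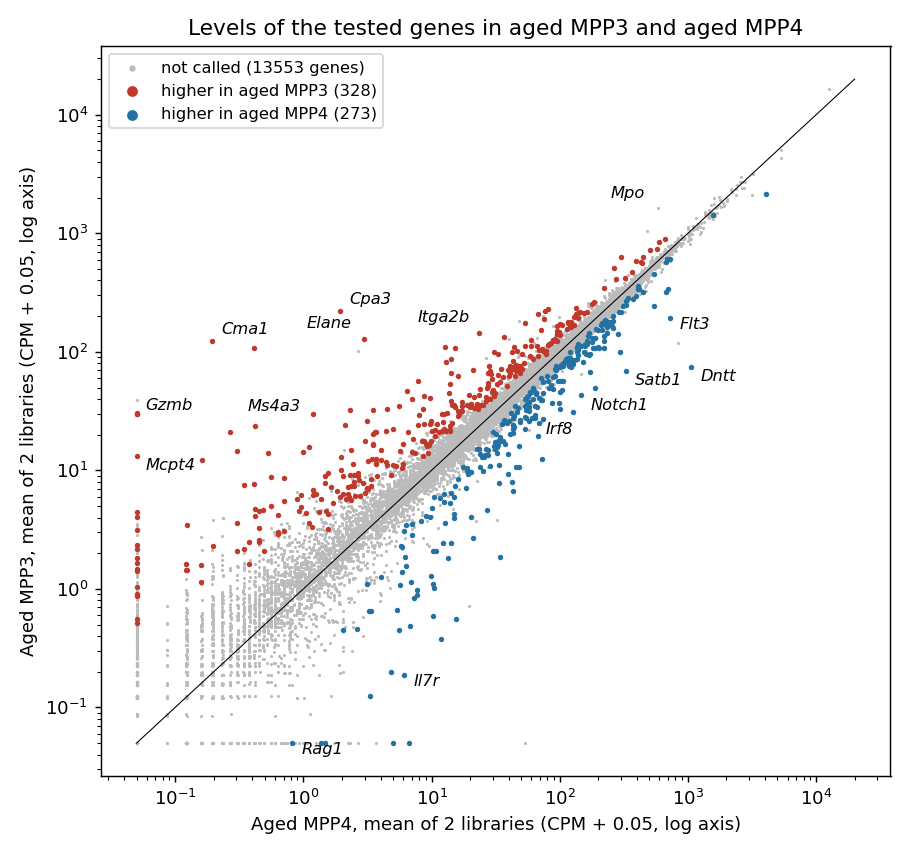
Mean CPM of 2 libraries in aged MPP4 (x axis) and aged MPP3 (y axis) for each of the 14154 genes tested, both on log axes after adding 0.05 CPM, with the line of equal levels. Red points are the 328 genes called higher in MPP3, which reach from mast cell proteases near the left edge (no counts in MPP4) to Elane and Itga2b, and blue points are the 273 called higher in MPP4, with Dntt, Flt3 and Satb1 at high levels.

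The fractions further down each lineage gave a reading of these genes that used no MPP library. Of the 328 genes higher in aged MPP3, 138 (42.1%) had their highest mean CPM among aged GMPs (granulocyte-macrophage progenitors), MEPs (megakaryocyte-erythrocyte progenitors) and CLPs (common lymphoid progenitors) in GMPs, 118 (36.0%) in MEPs and 72 (22%) in CLPs. Of the 273 genes higher in aged MPP4, 34 (12.5%) were highest in GMPs, 35 (12.8%) in MEPs and 204 (74.7%) in CLPs. Over all genes tested these shares were 22.1%, 37.9% and 40.0%. Genes with no counts in any of these fractions were counted with the GMPs. The mast cell genes Cma1, Mcpt4 and Tpsb2 were among them, so the GMP shares are upper limits. In aged CLPs the dendritic cell genes Irf8, Ly6d, Tcf4 and Cox6a2 were also high, with means of 4435, 900, 725 and 217 CPM. A highest level in CLPs thus did not separate lymphoid from dendritic genes. The shares are a description of where the called genes are transcribed, with no test. In the lists of genes below that had no call in one direction, at most 2 members had an unadjusted p under 0.05 in that direction, and DESeq2 called 0 there, apart from 1 stem cell gene lower and 1 Notch pathway gene higher in MPP3.

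**Figure D2:**
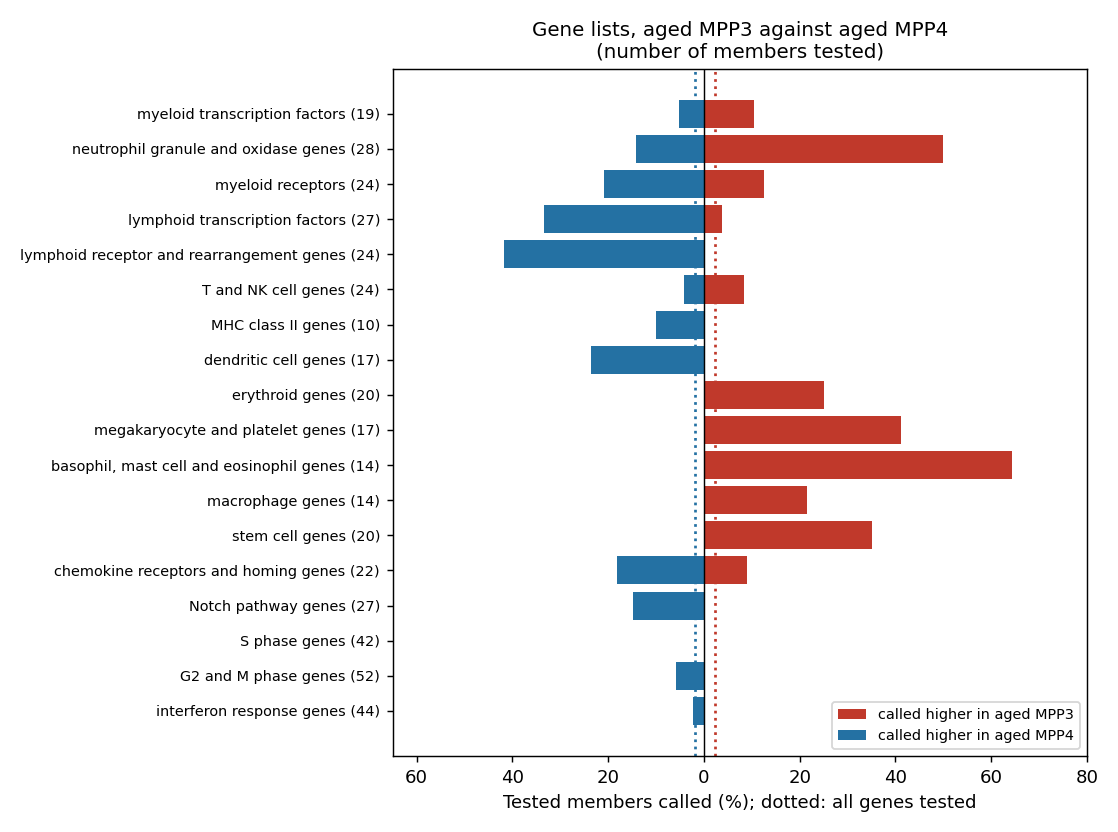
Share of the tested members of each gene list (number tested in parentheses) called higher in aged MPP3 (red, to the right) or higher in aged MPP4 (blue, to the left), in percent. Dotted lines give the shares over all 14154 genes, 2.32% and 1.93%. Mast cell, granule, megakaryocyte and stem cell lists extend towards MPP3, both lymphoid lists and the dendritic cell list towards MPP4, and the list of S phase genes shows no bar on either side.

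Genes of mast cells and basophils were among those with the largest differences. Of 15 listed genes of basophils, mast cells and eosinophils, 14 passed the filter on low counts, 9 were called higher in aged MPP3 and 0 lower, against 2.32% higher over all genes. Their median difference was 4.79, or 4.21 with the 4 genes at 0 in both libraries of a fraction set to their lower bound and 2 genes at or under 3 counts everywhere left out. The summed level of the list was 714 and 794 CPM in aged MPP3 and 72.1 and 78.5 CPM in aged MPP4. Listed genes near 0 in most other fractions pass the filter through the libraries where they are high. The count of calls on this list is therefore a description.

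Cpa3 (chromosome 3, 20215620 to 20242181) encodes the carboxypeptidase of mast cell granules. It had 219.8 and 223 CPM in aged MPP3 and 1.63 and 2.17 CPM in aged MPP4, a difference of 6.81 ± 0.15 (adjusted p = 3.39e-18). The duplicates lay close together and the fractions far apart. Tpsb2, a mast cell tryptase, showed the same arrangement, with 101 and 113 against 0.222 and 0.505 CPM (8.12 ± 0.41, adjusted p = 1.83e-07). Il1rl1, the receptor for interleukin 33, had 25 and 16.7 against 0.148 and 0.289 CPM (6.47 ± 0.47, adjusted p = 1.33e-08).

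Fcer1a, the ligand-binding chain of the high-affinity IgE receptor, was at 28.3 and 32.2 CPM in aged MPP3 and had 0 counts in both aged MPP4 libraries. Against the floor of 3 counts a library, it was higher in MPP3 by at least 7.11 on the log2 scale (adjusted p = 7.21e-08). Its partner chain Ms4a2 had 6.55 and 8.25 against 0.297 and 0.289 CPM (4.57 ± 0.76, adjusted p = 0.000352), and the shared signalling chain Fcer1g, which other myeloid cells also use, 23.4 and 25.5 against 8.97 and 10.3 CPM (1.30 ± 0.17, adjusted p = 1.87e-05). All 3 chains of the receptor were therefore called in the same direction. Alox5, which starts leukotriene synthesis, stood at 27.8 and 31.9 CPM with 0 counts in both MPP4 libraries, a log2 difference of at least 7.09 (adjusted p = 1.38e-09). Hdc, the enzyme that makes histamine, had 15 and 13.3 against 0.667 and 1.23 CPM (3.84 ± 0.46, adjusted p = 6.68e-06). Gata2, a transcription factor of stem cells and of the mast cell and basophil lineages, was present in both fractions and higher in MPP3, with 176 and 239 against 64.9 and 70.6 CPM (1.57 ± 0.21, adjusted p = 2.52e-05). Without either MPP4 library the call of Ms4a2 was lost (adjusted p up to 0.0128), and those of the other genes named here were kept with any 1 library left out.

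Several of these genes are neighbours. The mouse chymase locus on chromosome 14 runs from Cma1 (chromosome 14, 55941451 to 55944675) to Gzmb (chromosome 14, 56258838 to 56262260) and holds 15 protein-coding genes in 320.8 kb. It was singled out after the values were seen. All 15 were in the count table, 6 passed the filter on low counts, and 4 of those 6 were called higher in aged MPP3 and 0 lower, against 2.32% higher over all genes tested. Genes near 0 in other fractions pass the filter through the libraries where they are high, so this count is a description. Cma1, the chymase of connective tissue mast cells, had 120.0 and 125 CPM in MPP3 and 0 and 0.289 in MPP4 (9.58 ± 0.67, adjusted p = 2.93e-06, but 0.571 with DESeq2). Mcpt4, a second mast cell chymase (chromosome 14, 56059629 to 56062313), had 12.9 and 13.6 CPM in MPP3 and 0 counts in both MPP4 libraries, at least 5.91 on the log2 scale (adjusted p = 4.63e-05). Mcpt8, a protease of basophils, had 20.9 and 20.9 against 4.15 and 3.18 CPM (2.47 ± 0.25, adjusted p = 2.29e-06).

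Gzmb, the granzyme at the far end of the locus, known from cytotoxic lymphocytes, had 29.1 and 30.8 CPM in MPP3 and 0 counts in both MPP4 libraries (at least 7.09, adjusted p = 6.57e-06), the arrangement of Mcpt4. Of the defining markers of NK cells, Gzma had 0 counts in all 4 aged libraries, Ncr1 had 3 and 8 counts in MPP3 and 2 and 0 in MPP4, and Klrd1 4 and 0 against 9 and 4. The T cell markers Cd3e, Cd3d and Cd3g had 0 counts in all 4, and the part of other cells in the level of Gzmb was not tested. Ctsg, the cathepsin of neutrophil granules, lies between Mcpt8 and the granzymes and was not called, with 94.5 and 82.7 against 61.8 and 65.5 CPM (0.43 ± 0.24, adjusted p = 0.376). Mcpt2, with 1.03 and 1.5 CPM in MPP3 and 0 counts in both MPP4 libraries, did not pass the test (adjusted p = 0.0549). The 6 granzyme genes between Ctsg and Gzmb (Gzme, Gzmd, Gzmg, Gzmn, Gzmf and Gzmc) had 0 counts in all 4 libraries. Reads of near-identical proteases in this cluster may be divided between genes in counting, so the values of single chymases are uncertain.

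The sequences just before the start of 5 genes with large differences are shown, since the data bear on their transcription: mast cell genes Cpa3, Mcpt4 and Cma1, the neutrophil elastase gene Elane, and the lymphoid gene Dntt. Each is the 250 bases upstream of the RefSeq start in GRCm38.p6, 5′ to 3′ on the strand of the gene. Capitals mark matches on either strand to any of 5 short words, none of which was searched with mismatches. For GATA factors, which act in mast cells, platelets and red cells, the word was AGATAA. For the E-box, which basic helix-loop-helix factors bind, the searched word was CAGCTG. For RUNX factors, which act throughout blood formation, the searched word was TGTGGT. For PU.1, the myeloid factor that Spi1 encodes, the searched word was GAGGAA. For factors of the C/EBP family, which act in granulocytes, the searched word was TTGCNNAA.
Cpa3, chr3:20242182-20242431, minus strand: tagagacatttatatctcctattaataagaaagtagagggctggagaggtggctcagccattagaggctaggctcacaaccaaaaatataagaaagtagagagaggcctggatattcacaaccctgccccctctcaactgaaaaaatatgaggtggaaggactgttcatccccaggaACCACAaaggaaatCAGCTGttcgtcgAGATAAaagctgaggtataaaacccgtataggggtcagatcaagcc
Cma1, chr14:55944676-55944925, minus strand: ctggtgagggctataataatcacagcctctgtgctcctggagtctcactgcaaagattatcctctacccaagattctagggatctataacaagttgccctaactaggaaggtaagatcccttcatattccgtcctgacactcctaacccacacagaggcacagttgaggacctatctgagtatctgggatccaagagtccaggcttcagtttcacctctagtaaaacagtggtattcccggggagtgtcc
Mcpt4, chr14:56062311-56062560, minus strand: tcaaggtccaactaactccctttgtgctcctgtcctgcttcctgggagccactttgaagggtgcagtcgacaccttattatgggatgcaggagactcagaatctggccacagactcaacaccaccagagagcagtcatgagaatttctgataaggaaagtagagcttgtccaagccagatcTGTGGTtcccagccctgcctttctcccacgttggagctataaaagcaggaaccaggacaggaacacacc
Elane, chr10:79886062-79886311, plus strand: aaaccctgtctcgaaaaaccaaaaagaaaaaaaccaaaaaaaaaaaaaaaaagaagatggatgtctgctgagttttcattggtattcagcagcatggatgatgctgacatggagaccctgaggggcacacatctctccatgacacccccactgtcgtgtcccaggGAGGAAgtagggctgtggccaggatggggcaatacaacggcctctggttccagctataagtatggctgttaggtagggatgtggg
Dntt, chr19:41029025-41029274, plus strand: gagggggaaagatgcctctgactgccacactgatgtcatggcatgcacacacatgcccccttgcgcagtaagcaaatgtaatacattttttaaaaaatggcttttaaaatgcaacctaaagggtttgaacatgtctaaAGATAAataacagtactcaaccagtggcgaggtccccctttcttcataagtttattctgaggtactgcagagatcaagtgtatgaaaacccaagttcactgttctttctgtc
The Cpa3 window held a RUNX, an E-box and a GATA match, which began 73, 59 and 46 bases before the start. That of Mcpt4 held 1 RUNX match, that of Elane 1 PU.1 match and that of Dntt 1 GATA match. The Cma1 window held no match to the 5 words. Such short words are common: of 32851 windows of this length in the RefSeq table, 9.99% held the GATA word, 13% the E-box, 14% the RUNX word, 23.3% the PU.1 word and 9.56% the C/EBP word. The windows of genes called higher in aged MPP3 (350 windows of 256 matched genes) held them in 9.71%, 14.9%, 13.7%, 28.3% and 11.7%, and those of genes called higher in aged MPP4 (310 windows of 208 matched genes) in 7.42%, 12.3%, 13.5%, 20.6% and 10.0%. A match of letters is not a site of binding.

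Granule genes of the neutrophil lineage were also higher in aged MPP3, although not all of them. All 28 listed genes of neutrophil granules and of the oxidase passed the filter. Of these, 14 were called higher in MPP3 and 4 higher in MPP4, against 2.32% and 1.93% of all genes. The median of the list was 1.52. With 1 library left out, 9 (without MPP4 replicate 2) to 12 were called higher in MPP3. The summed level was 4306 and 4340.0 CPM in aged MPP3 and 2639 and 2646 CPM in aged MPP4. Elane (chromosome 10, 79886247 to 79888215), neutrophil elastase, had 129 and 128 against 2.89 and 2.96 CPM (5.41 ± 0.51, adjusted p = 1.83e-07). Ms4a3, a membrane protein of granulocyte-macrophage progenitors, had 31.9 and 27.6 against 1.41 and 0.866 CPM (4.66 ± 0.42, adjusted p = 9.75e-08). For both genes each MPP3 library was more than 10 times each MPP4 library.

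Mpo, the myeloperoxidase of primary granules, was higher in both MPP3 libraries (1639 and 1611 CPM) than in both MPP4 libraries (568 and 596 CPM), but did not pass the test (1.44 ± 0.39, adjusted p = 0.0226). Genes of later granules were called. Ngp had 66.6 and 108 against 12.4 and 15.8 CPM (2.58 ± 0.27, adjusted p = 1.21e-06), and its MPP3 duplicates lay further apart than those of Elane. Ltf, or lactoferrin, had 30.7 and 50.9 against 9.27 and 10.0 CPM (2.03 ± 0.38, adjusted p = 0.00126). Chil3 had 18.0 and 22.4 against 3.11 and 3.75 CPM (2.51 ± 0.25, adjusted p = 4.17e-07), and Camp, S100a8, S100a9, Lcn2, Hp, Fcnb, Cybb, Lyz2 and Srgn were called in the same direction. Ltf, Camp and Ngp are the defining markers of mature neutrophils fixed for this comparison. They were present in all 4 libraries, from 14.5 to 108 CPM in MPP3 and from 2.08 to 15.8 CPM in MPP4. Mean Ngp was 95.7 CPM in aged stem cells (HSCs), 92.2 in aged MPP2, 87.3 in aged MPP3 and 4.87 in aged GMPs. Ltf had 47.4, 48.4, 40.8 and 2.48 CPM in that order, and Camp 37.3, 20.9, 14.7 and 0.75. In aged MPP1 these markers were lower than in aged MPP3. Levels above those of MPP4 were thus not confined to MPP3. Chil3 and S100a9 were also lower in aged GMPs than in aged MPP3, while S100a8, Lcn2, Hp, Fcnb, Cybb, Lyz2 and Srgn were higher. The calls of Ltf and Cybb were lost without MPP3 replicate 2 or either MPP4 library (adjusted p up to 0.029 and 0.0397), as was that of Lyz2, that of Srgn without MPP3 replicate 1 or MPP4 replicate 2, and that of Fcnb whichever library was left out (0.0429, 0.0272 and 0.0598). The part that RNA of mature neutrophils has in these differences was not tested.

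The 4 granule and oxidase genes called the other way did not share that late program. Ncf1, the organizer subunit of the phagocyte oxidase, had 30.5 and 32 CPM in aged MPP3 and 124 and 129 CPM in aged MPP4 (-2.06 ± 0.14, adjusted p = 1.35e-09), while Cybb, the catalytic subunit of the same enzyme, had 8.41 and 9.75 against 2.45 and 2.09 CPM (1.95 ± 0.39, adjusted p = 0.00216). Subunits of 1 enzyme thus stood on opposite sides. Ncf4, a regulatory subunit, followed Ncf1 with 38.0 and 45.8 against 55.7 and 55.4 CPM (-0.45 ± 0.10, adjusted p = 0.008). The serine protease gene Prss57 had 58.5 and 54.8 against 102 and 91.5 CPM (-0.81 ± 0.13, adjusted p = 0.000158), and Cst7, which encodes cystatin F, 24.8 and 23.6 against 39.7 and 46.0 CPM (-0.87 ± 0.17, adjusted p = 0.00149). The calls of Ncf1 and Prss57 were kept with any 1 library left out. That of Ncf4 was lost without MPP3 replicate 1 or either MPP4 library, and that of Cst7 without either MPP3 library or MPP4 replicate 2 (adjusted p up to 0.204 and 0.05).

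Myeloid regulators and receptors did not follow the granule genes. Of 19 myeloid transcription factors, 2 were called higher in aged MPP3, 1 was called higher in aged MPP4 and 16 were not called. Over all genes, 2.32% were called higher in aged MPP3 and 1.93% higher in aged MPP4. Cebpa, Spi1 and Gfi1, central regulators of granulocyte and monocyte fate, had differences of -0.28 ± 0.15, -0.26 ± 0.08 and -0.50 ± 0.19 (adjusted p = 0.335, 0.0687 and 0.121). Cebpe, which drives late granule genes, had 1.17 and 1.58 against 0.148 and 0.505 CPM (1.98 ± 0.59, adjusted p = 0.0415). Tfec, with 28.6 and 31.4 against 11.4 and 13.7 CPM (1.21 ± 0.16, adjusted p = 2.58e-05), and Id2, with 14.9 and 18.5 against 8.01 and 9.89 CPM (0.86 ± 0.18, adjusted p = 0.00274), were the 2 called higher in MPP3. Without MPP3 replicate 2 or MPP4 replicate 1 the call of Id2 was lost (adjusted p up to 0.063).

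Irf8 (chromosome 8, 120736358 to 120756694), the transcription factor of monocytes and dendritic cells, was the 1 myeloid factor called higher in aged MPP4. It had 31.6 and 34.2 CPM in aged MPP3 and 98.9 and 102 CPM in aged MPP4 (-1.65 ± 0.13, adjusted p = 1.5e-08). Csf1r, the receptor for macrophage colony-stimulating factor, pointed the same way with 14.1 and 12.8 against 28.9 and 26.1 CPM (-1.07 ± 0.20, adjusted p = 0.000998). The call of Irf8 was kept with any 1 library left out, and that of Csf1r only without MPP4 replicate 2 (adjusted p up to 0.0306). Csf3r, the receptor for granulocyte colony-stimulating factor, was alike in all 4 libraries, with 267 and 298 against 256 and 262 CPM (0.08 ± 0.10, adjusted p = 0.752).

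Of 24 myeloid receptor genes, 3 were called higher in aged MPP3 and 5 higher in aged MPP4, against 2.32% and 1.93% of all genes. The median of the list was 0.09. Those higher in MPP3 were Fcer1g, Ly6c2 with 30.4 and 34.6 against 2.08 and 2.45 CPM (3.79 ± 0.25, adjusted p = 1.35e-09) and Fcgr3, an IgG receptor, with 8.48 and 6.98 against 1.48 and 1.37 CPM (2.39 ± 0.23, adjusted p = 2.97e-07). Those higher in MPP4 were Csf1r, Clec12a (-1.05), Cd33 (-2.40), Il6ra (-0.90) and Il1r1 (-0.83), with adjusted p values of 7.83e-06, 0.0012, 0.00121 and 0.00231 for the last 4. The calls of Cd33 and Il1r1 were lost whichever library was left out and that of Il6ra without either MPP3 library or MPP4 replicate 2 (adjusted p up to 0.0273, 0.0473 and 0.036). A myeloid receptor gene was therefore not by itself a gene of MPP3.

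Erythroid, megakaryocytic and stem cell genes were higher in aged MPP3 wherever they were called. Of 17 megakaryocyte and platelet genes tested, 7 were called higher in MPP3 and 0 lower (median 1.47, or 1.45 with bounds), of 20 erythroid genes 5 and 0 (median 1.08), and of 20 stem cell genes 7 and 0 (median 0.59). The shares over all genes were 2.32% and 1.93%. With 1 library left out, 4 to 7 megakaryocyte, 2 to 4 erythroid and 4 to 5 stem cell genes were called. Itga2b, integrin CD41 of megakaryocytes (chromosome 11, 102453297 to 102470122), had 140.3 and 149.7 against 22.9 and 23.8 CPM (2.59 ± 0.16, adjusted p = 3.98e-10). Selp, or P-selectin, had 212 and 229.6 against 75.5 and 79.2 CPM (1.47 ± 0.14, adjusted p = 1.94e-07). Gp5, a subunit of the platelet receptor for von Willebrand factor, had 9.86 and 9.15 against 1.56 and 1.44 CPM (2.61 ± 0.25, adjusted p = 1.83e-07). Gp1ba, Nfe2 and Rab27b were also called. The call of Nfe2 was lost without MPP3 replicate 2 or either MPP4 library and that of Gp1ba without MPP4 replicate 1 (adjusted p up to 0.05 and 0.0213).

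Among erythroid genes, Tfr2, a transferrin receptor, had 179 and 199.5 against 73.7 and 76.8 CPM (1.29 ± 0.13, adjusted p = 5.12e-07). Gfi1b and Tal1, transcription factors of the erythroid and megakaryocytic lineages, differed by 1.25 ± 0.16 and 0.85 ± 0.16 (adjusted p = 1.61e-05 and 0.00136). Gata1, their partner, was low in both fractions, at 3.59 and 2.4 CPM in MPP3 and 0.297 and 0.866 CPM in MPP4 (2.30 ± 0.40, adjusted p = 0.000486). Without MPP3 replicate 1 the calls of Gata1 and Tal1 were lost, as they were without MPP4 replicate 1 and MPP4 replicate 2, respectively (adjusted p up to 0.0226 and 0.0348). Car2, a carbonic anhydrase, made up the 5 at 0.45 ± 0.11, a call lost whichever library was left out (up to 0.0952). Of the defining markers of later erythroid cells, Klf1 lay at 1.31 and 1.80 CPM in MPP3 and at 0.297 and 0.361 CPM in MPP4, and Alas2 at 9.72 and 8.63 against 5.12 and 4.40 CPM.

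Of the stem cell genes, Esam, an adhesion molecule of HSCs and endothelium, had 81.4 and 81.3 against 14.2 and 11.6 CPM (2.61 ± 0.19, adjusted p = 9.77e-09). Tek, the angiopoietin receptor, had 25.8 and 26.3 against 3.48 and 2.67 CPM (3.03 ± 0.48, adjusted p = 0.000349), and Procr, which encodes the stem cell antigen EPCR, 38.1 and 37.6 against 16.7 and 17.7 CPM (1.10 ± 0.18, adjusted p = 0.00041). Mllt3, a regulator of stem cell maintenance, differed less, by 0.61 ± 0.12 (adjusted p = 0.00149), and its call was lost whichever library was left out, that of Tek without MPP4 replicate 2 (adjusted p up to 0.0289 and 0.0139). Slamf1 and Gata2 were also called. The summed level of the stem cell list was 1501 and 1526 CPM in aged MPP3 and 957 and 979.6 CPM in aged MPP4. Whether cells of neighbouring gates take part in these differences was not tested.

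**Figure D3:**
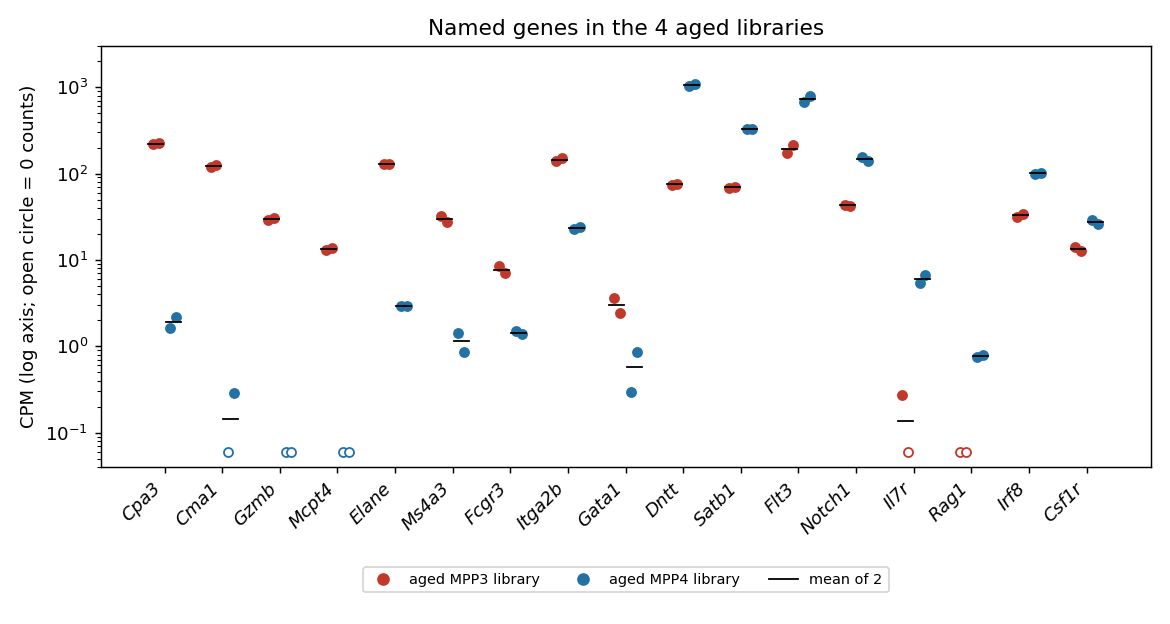
CPM of 17 named genes in each of the 4 aged libraries (log axis), with aged MPP3 in red, aged MPP4 in blue, the mean of 2 libraries as a bar and 0 counts as open circles at the foot. The duplicates of a fraction lie close together for nearly all of these genes, and the fractions do not overlap for any of them. All 17 are genes called in this comparison, so this separation follows from their choice.

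The lymphoid program stood on the side of aged MPP4. Of 24 lymphoid receptor and rearrangement genes tested, 10 were called higher in MPP4 and 0 higher in MPP3, against 1.93% of all genes, with a median of -1.87, or -1.61 with 3 genes at their bound and 5 genes at or under 3 counts left out. Dntt (chromosome 19, 41029275 to 41059525), the terminal transferase, had 74.5 and 75.0 CPM in aged MPP3 and 1044 and 1088 CPM in aged MPP4 (-3.88 ± 0.11, adjusted p = 1.63e-13). It had the smallest p of the genes called higher in MPP4. Dntt was not absent from MPP3: both MPP3 libraries held it far above the floor of 3 counts.

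The recombinase genes were at low levels throughout. Rag1 had 0 counts in both aged MPP3 libraries and 0.741 and 0.794 CPM in aged MPP4, lower in MPP3 by at least 1.83 on the log2 scale (adjusted p = 0.00513), a call that was lost whichever library was left out (up to 0.0473). Rag2 had 0.414 and 0.45 against 7.19 and 6.35 CPM (-3.99 ± 0.57, adjusted p = 0.000122). Il7r, the interleukin 7 receptor gene, had 0.276 and 0 against 5.41 and 6.71 CPM (-5.36 ± 0.56, adjusted p = 7e-06), although cells with the receptor on their surface were excluded from both fractions. Blnk, an adaptor of the pre-B cell receptor, had 0.758 and 0.825 against 6.82 and 7.58 CPM (-3.22 ± 0.39, adjusted p = 1.04e-05).

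Some genes known from T cell progenitors, among other cells, were called in the same direction, although on the list of 24 T and NK cell genes Lck alone was called higher in MPP4. Lck, the kinase of T cell receptor signalling, had 24.8 and 29.7 against 73.2 and 74.8 CPM (-1.48 ± 0.18, adjusted p = 5.69e-06). Ccr9 and Ccr7, receptors that guide progenitors to the thymus, had 0.345 and 0.45 against 6.82 and 4.19 CPM and 1.17 and 1.28 against 10.1 and 9.74 CPM (differences of -3.81 ± 0.54 and -3.05 ± 0.45, adjusted p = 7.77e-05 and 0.000158). Notch1, the receptor that directs T cell fate (chromosome 2, 26457903 to 26516663), had 43.6 and 42.1 against 157 and 138 CPM (-1.83 ± 0.22, adjusted p = 6.55e-06). Of 27 Notch pathway genes tested, 4 were called higher in MPP4 and 0 higher in MPP3, against 1.93% and 2.32% of all genes. The 4 were Notch1, its target Hes1 (5.45 and 6.45 against 8.97 and 11.8 CPM, -0.85 ± 0.15, adjusted p = 0.00079), Dtx4 (-1.56, adjusted p = 1.28e-05) and the coactivator Maml3 (-0.75, adjusted p = 0.00696). The call of Maml3 was lost whichever library was left out and that of Hes1 without MPP3 replicate 1 or MPP4 replicate 2 (adjusted p up to 0.152 and 0.0456).

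Lymphoid transcription factors followed with smaller differences at higher levels. Of 27 tested, 9 were called higher in aged MPP4 and 1 higher in aged MPP3, against 1.93% and 2.32% of all genes. The median of the 27 was -0.40. Satb1 (chromosome 17, 51736187 to 51833290), a chromatin organizer of early lymphoid cells, had 68.8 and 69.9 against 324 and 328 CPM (-2.28 ± 0.13, adjusted p = 2.21e-10). Mef2c, Tcf4 and Ets1 differed by -0.96 ± 0.10, -0.90 ± 0.10 and -1.18 ± 0.14 (adjusted p = 9.51e-07, 1.93e-06 and 3.48e-06). Ikzf1, which encodes Ikaros, had 155 and 134 against 232 and 233 CPM (-0.73 ± 0.11, adjusted p = 8.76e-05). Bcl11a, Foxp1, Notch1 and Hes1 completed the 9. The call of Ikzf1 was lost without MPP3 replicate 2 (0.0105), that of Foxp1 without either MPP3 library or MPP4 replicate 2 and that of Bcl11a whichever library was left out (up to 0.053 and 0.0297).

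The factors that commit cells to the B lineage had few or no counts. Ebf1 was counted in only 1 of the 4 aged libraries, an MPP4 library, with 3 counts there, and Pax5 had 0 counts in all 4. Cd79a, a defining B cell marker, had 0 counts in both MPP4 libraries and 4 and 5 in the MPP3 libraries. Pou2af1, a coactivator of mature B cells, was the 1 listed factor called the other way, with 1.38 and 0.825 CPM in MPP3 and 0 and 0.217 CPM in MPP4. With 0 and 3 counts in MPP4 its log2 ratio and counting interval was 3.34 (1.66 to 5.70) (adjusted p = 0.00512, lost without MPP3 replicate 1 or MPP4 replicate 1, up to 0.0739). Jchain, the joining chain of antibodies made by plasma cells, also lay on the MPP3 side, at 24.9 and 22.2 against 0.371 and 0.361 CPM (5.93 ± 0.53, adjusted p = 5.69e-07). Mean Jchain was 58.3 CPM in aged MPP2, 69.2 in aged CLPs and at most 1.70 in aged HSCs, MPP1, GMPs and MEPs. Mean Pou2af1 was 1.69 CPM in aged MPP2, 135 in aged CLPs and at most 0.089 in aged HSCs, MPP1, GMPs and MEPs. The share of these 2 transcripts that came from other cells was not tested.

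Where 1.93% of all genes were called higher in aged MPP4, 4 of 17 tested dendritic cell genes were, and 0 were called higher in MPP3. These were Irf8, Tcf4, Ly6d (0.758 and 1.35 against 3.56 and 2.67 CPM, -1.61 ± 0.30, adjusted p = 0.00269) and Cox6a2 (0 and 0.3 against 5.26 and 4.33 CPM, -5.01 ± 0.58, adjusted p = 0.000211), and 3 of the 4 also stand on other lists. Tlr7, a receptor for single-stranded RNA that plasmacytoid dendritic cells use, was among the 10 genes with the largest differences at a mean of at least 10 CPM, with 2.96 and 2.33 against 21.0 and 20.8 CPM (-3.02 ± 0.45, adjusted p = 0.0001). Of 10 MHC class II genes only H2-Ob was called, at 34.8 and 35.0 against 66.1 and 63.1 CPM (-0.93 ± 0.17, adjusted p = 0.000996). The call of H2-Ob was lost whichever library was left out and that of Ly6d without MPP3 replicate 1 or MPP4 replicate 1 (adjusted p up to 0.0194 and 0.0553).

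The other genes with the largest differences towards MPP4 have no settled place in the lymphoid program. Mrvi1, a substrate of a cyclic GMP kinase, had 0.207 and 0.45 against 12.0 and 11.8 CPM (-5.20 ± 0.62, adjusted p = 7.73e-06). The Ras regulator gene Rasal1 and the potassium channel subunit gene Kcng1 had 0.345 and 0.675 against 13.3 and 17.5 CPM and 1.31 and 2.33 against 35.7 and 33.2 CPM (differences of -4.95 ± 0.57 and -4.29 ± 0.46). Arpp21, known from neurons and thymocytes, had 0.552 and 0.525 against 9.41 and 11.1 CPM (-4.27 ± 0.50), and Ddx4, an RNA helicase known from germ cells, 0.758 and 1.35 against 10.4 and 10.1 CPM (-3.32 ± 0.35). The adjusted p values of these 4 were 0.000202, 4.25e-06, 5.31e-06 and 1.6e-06. Drc7 and Clec2i were also among the 10, with differences of -3.46 and -2.96. On the MPP3 side the only other gene of the 10 largest was Ccl2, a chemokine for monocytes, at 10.7 and 13.7 against 0.222 and 0 CPM, with 3 and 0 counts in MPP4 and a counting interval of 6.79 (5.23 to 9.07).

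Adhesion and homing genes were divided. Of 22 tested, 2 were called higher in aged MPP3 and 4 higher in aged MPP4, against 2.32% and 1.93% of all genes. S1pr1, the receptor by which cells leave tissue towards blood, had 37.5 and 38.6 against 14.5 and 14.1 CPM (1.37 ± 0.13, adjusted p = 2.14e-07), and the laminin receptor subunit Itga6 177 and 183 against 116 and 114 CPM (0.60 ± 0.11, adjusted p = 0.000802). Itgal, a chain of the leukocyte integrin LFA-1, had 81.3 and 83.5 against 161 and 142 CPM (-0.92 ± 0.17, adjusted p = 0.00101), and the hyaluronan receptor Cd44 172 and 165 against 209 and 211 CPM (-0.36 ± 0.06, adjusted p = 0.00017). Ccr7 and Ccr9 were the other 2 higher in MPP4. With 1 library left out the calls of S1pr1, Ccr7 and Ccr9 were kept. Those of Itga6 (without MPP3 replicate 2 or either MPP4 library), Itgal (without either MPP3 library or MPP4 replicate 1) and Cd44 (without MPP3 replicate 2 or MPP4 replicate 2) were lost, with adjusted p up to 0.0176, 0.0299 and 0.0168.

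Few cell cycle and interferon genes were called. Over all genes, 2.32% were called higher in MPP3 and 1.93% higher in MPP4. None of 42 S phase genes was called in either direction with edgeR or with DESeq2 (median 0.00), and 3 of them had an unadjusted p under 0.05 with edgeR. Their summed level was 10555 and 11013 CPM in aged MPP3 and 10518 and 10637 CPM in aged MPP4. Of 52 genes of the G2 and M phases, 3 were called higher in MPP4 and 0 higher in MPP3, with a median of -0.29 and 49 of 52 fitted differences below 0. An unadjusted p under 0.05 was found for 31 of the 52 lower in MPP3 and 1 higher, against 2633 of all 14154 genes in either direction. The 3 called were Kif23, Gtse1 and Ube2c, at -0.63 ± 0.09, -0.44 ± 0.08 and -0.54 ± 0.10 (adjusted p = 6.92e-05, 0.000776 and 0.00101). Of 44 interferon response genes, only Gbp6 was called, at 9.79 and 9.53 against 18.8 and 21.4 CPM (-1.10 ± 0.24, adjusted p = 0.00423), and 11 were lower in MPP3 and 2 higher at an unadjusted p under 0.05. The calls of Gbp6 and Gtse1 were lost whichever library was left out and that of Ube2c without MPP3 replicate 1 or MPP4 replicate 2 (adjusted p up to 0.076, 0.035 and 0.0366), while DESeq2 called 13 of the 52 genes of the G2 and M phases higher in MPP4.

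A few macrophage genes were called on the MPP3 side. Of 14 tested, 3 were called higher in aged MPP3 and 0 lower, against 2.32% and 1.93% of all genes. The 3 were Vcam1 (1.65), the iron exporter gene Slc40a1 (1.71) and the receptor gene Axl (0.84). Without MPP3 replicate 2 or MPP4 replicate 1 the call of Axl was lost, without MPP4 replicate 2 that of Vcam1 (adjusted p up to 0.0307 and 0.0107). The list summed to 82.3 and 89.5 CPM in MPP3 and 44.8 and 46.2 CPM in MPP4, and its defining markers C1qa, C1qb and Adgre1 lay between 1.43 and 6.41 CPM in MPP3 and between 0.217 and 2.52 CPM in MPP4. Erythroid genes summed to 1593 and 1542 against 952 and 941 CPM and megakaryocyte genes to 1214 and 1349.9 against 693 and 719 CPM. The T and NK list had 2 of 24 genes called higher in MPP3, Gzmb and Zbtb16 (its call was lost without MPP4 replicate 2, adjusted p = 0.0289), and 1 higher in MPP4, Lck. Its sum was 305 and 321 CPM in MPP3 and 265 and 263 CPM in MPP4. Prss34, a basophil protease, had 0.69 and 1.28 CPM in MPP3 and 0 counts in both MPP4 libraries. The part of other cell types in the contrast was not tested.

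The same contrast in young marrow used no library of the aged contrast. There, 818 of 14154 genes (5.78%) were called, 509 (3.6%) higher in young MPP3 and 309 (2.18%) higher in young MPP4. At both ages 403 genes were called, 243 higher and 160 lower in MPP3, and 0 in opposite directions. They made up 67.1% of the aged calls and 49.3% of the young ones. A further 198 genes were called in aged cells only and 415 in young cells only, which by itself does not show that their differences changed. Of 14 tested genes of basophils, mast cells and eosinophils, 13 were called higher in young MPP3 and 9 in aged MPP3. Lymphoid receptor and rearrangement genes differed more between the ages. Of 24, 9 were called higher in young MPP4 and 3 higher in young MPP3 (median -0.30). In aged cells these counts were 10 and 0 (median -1.87, or -1.61 with bounds). The change of a list was not tested as a set. Elane differed by 5.46 in young and 5.41 in aged cells, Ms4a3 by 4.71 and 4.66, Dntt by -3.69 and -3.88, Satb1 by -1.96 and -2.28 and Itga2b by 2.39 and 2.59.

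The change of the difference with age was tested directly, as aged MPP3 minus MPP4 less young MPP3 minus MPP4. It was called in 25 of 14154 genes (0.177%). In 22 (0.155%) the aged difference was lower, that is, shifted towards MPP4, and in 3 (0.0212%) it was higher. With any 1 of the 8 libraries left out these counts were 5 to 18 (lowest without aged MPP4 replicate 2) and 1 to 5, and with DESeq2 57 and 21. The calls of Irf8, Hp, Cpa3, Clec12a, Slpi and Xdh were kept with any 1 library left out, and the 19 others were lost in at least 1 of the 8 cases. Fitted to the 8 libraries of MPP3 and MPP4 alone, 20 changes towards MPP4 were called, of which 12 were among the 22, and the calls of Clec12a, Slpi and Xdh were lost (adjusted p = 0.041, 0.0179 and 0.0342), as were those of Ly86 and Ngp (0.0547 and 0.0179). Of the 22, 17 had been called higher in young MPP3, while 5 were called higher in aged MPP3 and 5 higher in aged MPP4. In 20 of the 22 both aged MPP3 libraries were below both young MPP3 libraries in CPM, in 17 both aged MPP4 libraries were above both young MPP4 libraries, and in 15 both held. Over all genes tested these arrangements were found in 39.3%, 23.5% and 1.13%. The CPM were scaled to library totals, without the normalization factors of the fit. Those factors were 1.03 in aged and 1.06 to 1.07 in young MPP3, and 1.00 in aged and 1.05 to 1.07 in young MPP4. Arrangements that rest on small differences may therefore depend on the scaling. Aged GMPs had a higher mean CPM than both aged MPP fractions in 18 of the 22, against 26.8% of all genes. The rule that chose the 22 makes such arrangements likely, so they are given as a description.

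**Figure D4:**
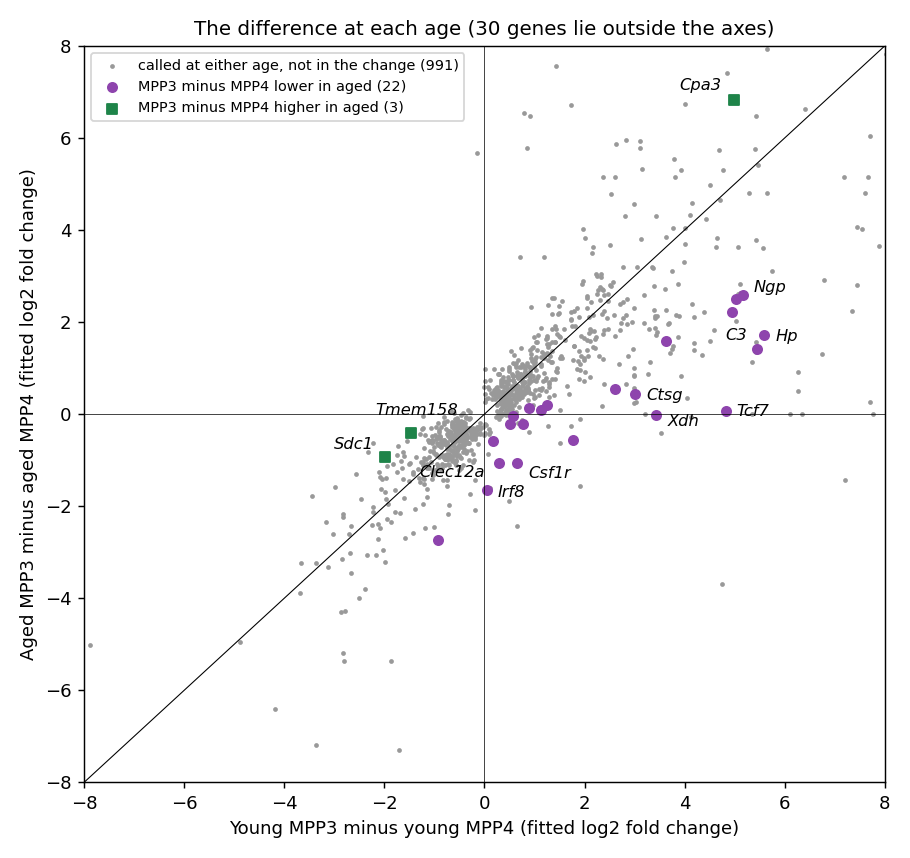
Fitted log2 fold change of MPP3 over MPP4 in young (x axis) and aged cells (y axis), with the line of equal differences. Grey points are the 991 genes called at either age but not in the change, purple points the 22 whose difference was lower in aged cells, and green squares the 3 whose difference was higher; 30 genes lie beyond 8 on an axis. Irf8 and Csf1r fall below 0 on the aged axis alone, and Hp, C3, Ngp and Ctsg lie far to the right of the line.

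Irf8 had the smallest p of the genes called in the change. Young MPP3 and young MPP4 held it at 76.1 and 78.6 and 73.4 and 76.3 CPM, a difference of 0.04 ± 0.13 (adjusted p = 0.947), whereas the aged difference was -1.65 ± 0.13. The change was -1.70 ± 0.18 (adjusted p = 9.97e-05). Aged MPP3 lay below every young library and aged MPP4 above every young library. In aged GMPs and CLPs, where the gene is known to act, its mean was 835 and 4435 CPM. Csf1r went from 33.6 and 36.0 against 23.5 and 20.4 CPM in young cells (0.65 ± 0.19, adjusted p = 0.0292) to the opposite sign in aged cells, a change of -1.73 ± 0.27 (adjusted p = 0.00274), a call that was lost whichever of the 8 libraries was left out (up to 0.0401). Clec12a, an inhibitory receptor of myeloid cells, had 39.2 and 41.1 against 30.6 and 35.4 CPM in young cells and 18.0 and 14.7 against 35.8 and 30.2 CPM in aged cells, a change of -1.34 ± 0.17 (adjusted p = 0.000589).

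Of the 28 granule and oxidase genes, 5 were called in the change, each towards MPP4, against 0.155% of all genes. Ctsg stood at 97.5 and 91.4 CPM in young MPP3 and 11.7 and 11.6 CPM in young MPP4, and its aged MPP4 libraries were at 61.8 and 65.5 CPM. The change was -2.58 ± 0.37 (adjusted p = 0.000937), and it lay in the MPP4 libraries. Hp, or haptoglobin, had 35.0 and 39.7 against 0.528 and 1.04 CPM in young and 12.1 and 12.7 against 3.63 and 3.68 CPM in aged cells (-3.88 ± 0.45, adjusted p = 0.000126). Ngp had 455 and 472 CPM in young MPP3 and 11.5 and 14.3 CPM in young MPP4, with a change of -2.59 ± 0.38 (adjusted p = 0.00137), and this one lay in MPP3. Chil3 and Lcn2 changed by -2.52 ± 0.36 and -2.73 ± 0.45 (adjusted p = 0.000937 and 0.00399) in the same arrangement. Without aged MPP4 replicate 2 or young MPP4 replicate 1 the called changes of Ctsg, Ngp, Chil3 and Lcn2 were lost, those of Ctsg and Lcn2 also in other cases (adjusted p up to 0.0133, 0.0323, 0.0326 and 0.0555).

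Changes were also called for Slpi, a protease inhibitor (-2.06 ± 0.28), Ly86, a partner of a Toll-like receptor (-2.34 ± 0.33), Ap3s1, a subunit of a vesicle adaptor (-1.03 ± 0.15), and Xdh, xanthine dehydrogenase (-3.46 ± 0.42), with adjusted p of 0.000589, 0.000937, 0.000937 and 0.000166. The calls of Ly86 and Ap3s1 were lost without aged MPP4 replicate 2, and without young MPP4 replicate 1 and young MPP4 replicate 2, respectively (up to 0.0186 and 0.0141). On the granule and oxidase list, 19 genes had been called higher in young MPP3 and 1 lower, against 3.6% and 2.18% of all genes. The median of the list in young cells was 3.34. Elane and Ms4a3 were not among those called in the change, with changes of -0.05 ± 0.73 and -0.05 ± 0.76 (adjusted p = 1 for both).

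**Figure D5:**
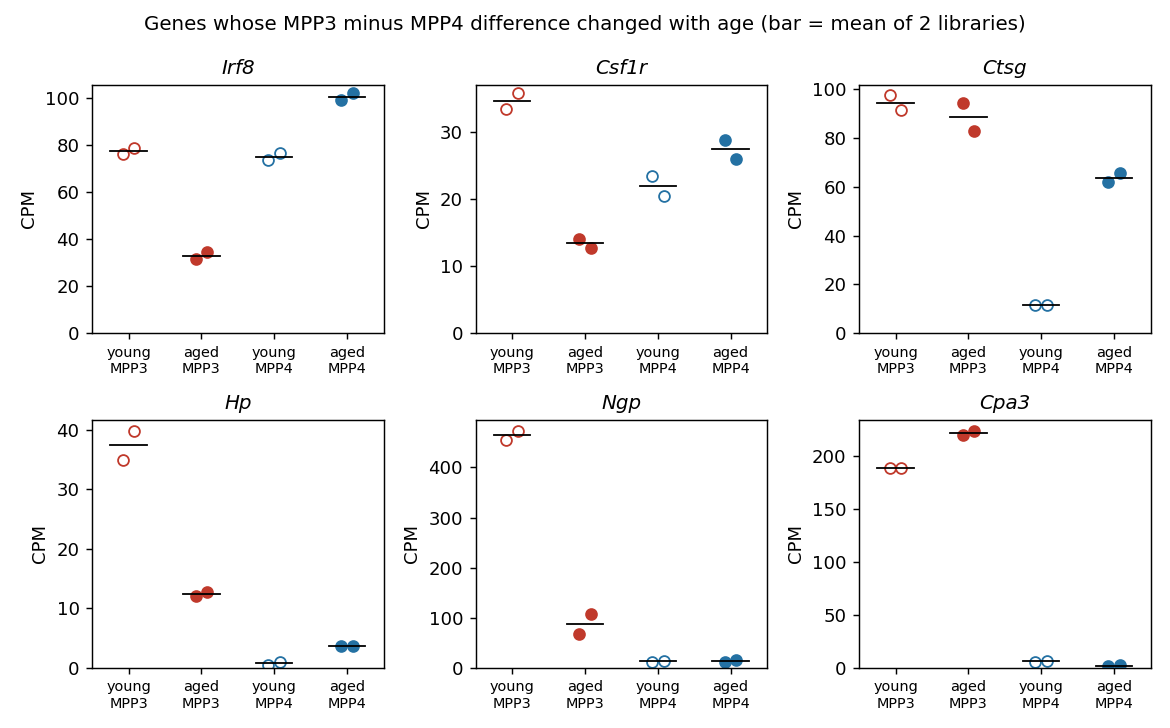
CPM of 6 genes in the 8 MPP3 and MPP4 libraries (linear axes from 0), open circles for young and filled circles for aged cells, red for MPP3 and blue for MPP4, bars at the mean of 2. Irf8 and Csf1r are lowest in aged MPP3, Ctsg is raised in aged MPP4, Hp and Ngp are highest in young MPP3, and Cpa3 is high in MPP3 at both ages.

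Cpa3 was the 1 gene of the mast cell list with a called change. Its young difference was 4.98 ± 0.13, from 189 and 189 against 5.81 and 6.09 CPM, and the change was 1.83 ± 0.21 (adjusted p = 0.000126). Both aged MPP3 libraries were somewhat above the young ones, and both aged MPP4 libraries were below them, at low levels in both ages. Fcer1a had 9.71 and 8.54 CPM in young MPP3 and Gzmb 10.1 and 10.2 CPM, both below their aged levels, but their MPP4 libraries were at or near 0 and neither change was called (adjusted p = 1 and 0.35). Sdc1, the proteoglycan syndecan 1, and Tmem158 were the other 2 genes whose difference was higher in aged cells, with calls that were lost whichever of the 8 libraries was left out (adjusted p up to 0.0623 and 0.0578). Sdc1 had 40.5 and 43.4 against 164 and 169 CPM in young and 26.5 and 26.9 against 50.6 and 47.6 CPM in aged cells (1.07 ± 0.19, adjusted p = 0.00687), so both fractions were nearer to each other in aged marrow.

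The change was not called for the leading lymphoid genes. Dntt, Satb1, Notch1 and Il7r changed by -0.19 ± 0.14, -0.32 ± 0.18, -0.22 ± 0.30 and -3.49 ± 0.81 (adjusted p = 1, 0.944, 1 and 0.116). Notch1 was nevertheless lower in both aged fractions than in the same fraction of young marrow, with young levels of 85.2 and 72.0 CPM in MPP3 and 271 and 206 CPM in MPP4. Dntt was higher in both, against 58.4 and 59.0 and 734 and 779 CPM in young cells. Among lymphoid factors a change was called for Tcf7, the T cell factor TCF-1, with 10.7 and 10.5 against 0.264 and 0.481 CPM in young and 3.17 and 1.88 against 2.67 and 2.02 CPM in aged cells (-4.75 ± 0.78, adjusted p = 0.00392). It was higher in aged than in young MPP4 and lower in aged than in young MPP3. Its call was kept only without aged MPP3 replicate 1 among the 8 libraries left out in turn (adjusted p up to 0.0652).

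The G2 and M phase list had 18 of 52 genes called higher in young MPP4, against 2.18% of all genes, and 0 in young MPP3. In aged cells it had 3 called higher in MPP4, against 1.93% of all genes, and 0 in MPP3. In the change it had none. Its sum was 6432 and 6596 CPM in young MPP3 and 8276 and 7997 CPM in young MPP4, against 8884 and 9287 and 9950.3 and 10303 CPM in the aged fractions. Both aged sums were thus above the young sum of their own fraction.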

How the data were processed

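RNA of sorted fractions was amplified by the authors with a SMARTer Ultra Low Input kit and sequenced as single reads on a HiSeq. Per the submitters' processing notes, reads were aligned to mm10 with TopHat2 2.0.13 and Bowtie2 2.1.0 and counted with StringTie. The values used are the raw counts per gene as deposited by the authors. Neither strand nor molecular identifiers are stated, so overlapping genes cannot be told apart and intervals and floors cover counting error only. Libraries were grouped by the labels, 2 in each of 16 groups.

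Counts were fitted with edgeR 4.0.16 (TMM, filterByExpr, 1 mean per group, 32 libraries in the fit), which left 14154 of 24421 genes, and called at an adjusted p below 0.01. Gene names that had been turned into dates (27, with 0.188% of the counts) were not removed before the fit and are not named here. A deposited table of normalized values (32 columns of per-sample values) and 8 tables that hold the authors' own age comparisons (fold changes and p-values) were not used. In simulated counts for this contrast, with 14026 genes, 81 of 100 genes changed 2-fold and 99 of 100 changed 4-fold were called, with 3 unchanged genes. The changed genes were drawn above a minimum level and the spread was the one fitted here. The simulation therefore does not cover genes at low levels. Promoter windows come from RefSeq for GRCm38.p6 and gene coordinates from GENCODE for GRCm38, whose starts can differ.

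The comparison and its 19 gene lists were chosen with earlier results of these data known. Genes are named by rule: the sorting antigens; in each list up to 4 called genes of smallest p in each direction; the 10 largest called differences each way at a mean of at least 10 CPM; the 8 smallest p in each direction of the change with age; and a fixed set of regulators. Genes named outside it (among them the chymase locus and the other called members of lists) were chosen after their values were seen. Some genes that the rule names are not reported here. Alternatives were DESeq2 1.42.0, its size factors in edgeR, no filter, fewer libraries in the fit, a replicate block, other thresholds and leaving out each library.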

Additional observations from a re-analysis of the deposited data

Results flagged for a closer look

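The difference between MPP3 and MPP4 changed with age in 25 genes by a test of the difference itself (edgeR, adjusted p below 0.01 over 14154 genes). Those reported here are given below. Values are the log2 difference of MPP3 over MPP4 in aged cells less that in young cells, so that a negative value is a shift towards MPP4.

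Of genes of the monocyte and dendritic lineages, Irf8 changed by -1.70, Csf1r by -1.73, Clec12a by -1.34, Ly86 by -2.34 and F13a1, a coagulation factor chain of monocytes, by -2.04. Of granule and secreted genes, Hp changed by -3.88, the complement component gene C3 by -4.03, Lcn2 by -2.73, Ngp by -2.59, Ctsg by -2.58, Chil3 by -2.52 and Slpi by -2.06. The lymphoid gene Tcf7 changed by -4.75.

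Of genes of other functions, Xdh changed by -3.46, Ap3s1 by -1.03 and the heparan sulfate proteoglycan gene Gpc1 by -1.03. The phosphodiesterase gene Pde2a changed by -0.78, Tmem229b by -0.75, the membrane protein gene Stom by -0.72 and Alas1, which starts heme synthesis, by -0.61. Towards MPP3, Cpa3 changed by 1.83, Sdc1 by 1.07 and Tmem158 by 1.06.

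Irf8, Hp and Cpa3 kept their calls under every alternative that kept the threshold and added no minimum size. Csf1r, F13a1, Gpc1, Sdc1, Stom and Tmem158 lost theirs whichever of the 8 libraries was left out.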

How the results depend on the processing

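With 328 genes called higher and 273 lower in aged MPP3, 509 and 309 in young MPP3, and 3 and 22 changes towards MPP3 and MPP4 with age, DESeq2 called 607 and 489, 741 and 521, and 21 and 57. An adjusted p below 0.05 gave 570 and 515, 775 and 542, and 9 and 36. A further minimum of 1 on the log2 scale gave 193 and 115, 326 and 118, and 3 and 17. With only the libraries of a comparison in the fit, the aged counts were 199 and 177. With 1 library left out (the lone library being assumed to vary like the others), the counts ran from 174 to 242 and from 119 to 147 in aged, from 268 to 336 and from 133 to 197 in young cells, and from 1 to 5 and from 5 to 18 for the change. DESeq2 size factors, no filter and a fit of the 8 MPP3 and MPP4 libraries moved no count by over 1.5 times, although the last shared only 256 of the 328 and 203 of the 273 aged calls and 12 of the 22 changes towards MPP4. The labels do not say whether same-numbered libraries share a pool of marrow or a day of sorting. Same-numbered MPP3 and MPP4 libraries deviated together only weakly (correlations 0.0413 in aged and 0.0321 in young cells). With the replicate block the counts were 325 and 271, 496 and 312, and 1 and 21, and the calls of F13a1, Sdc1 and Tmem158 in the change were lost. Of 108 called genes followed in the aged comparison, 63 kept their call under every alternative at the same threshold and 0 changed direction. Genes that were not called reversed under single settings. With 1 library left out, Bhlhe40 ran from -0.0905 to 0.0682, Cd8a from -5.37 to 0.277, Ebf1 from -4.67 to 0, Hist1h2ao from -0.460 to 6.24, Ly6a from -0.0695 to 0.0548 and Xdh from -0.458 to 0.689 (log2, aged MPP3 over aged MPP4). With the block, Pax5, which had no counts in these libraries, came to 0.0101. The cause was not tested. With 2 libraries a fraction and a floor of 3 counts, differences at low levels are the least certain.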

Other observations

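Genes outside the lists also separated the aged fractions. Clec2i, a C-type lectin gene, had 1.72 and 1.8 CPM in aged MPP3 and 14.5 and 12.1 CPM in aged MPP4 (a log2 difference of -2.96 ± 0.40, adjusted p = 3.84e-05 with edgeR), and Drc7, known from cilia, 0.965 and 0.975 against 8.97 and 11.9 CPM (-3.46 ± 0.43, adjusted p = 6.9e-05). In both genes both MPP4 libraries lay above both MPP3 libraries.

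The histone gene Hist1h2ao had 1.93 and 202 CPM in the aged MPP3 libraries and 2.67 and 2.6 CPM in the aged MPP4 libraries, so that 1 library decided its mean, and it was not called (adjusted p = 0.0415). C3 had 32.5 and 31.9 against 0.727 and 0.722 CPM in young and 8.96 and 9.45 against 2.82 and 3.83 CPM in aged cells.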
